A study of Mus musculus with 24 samples.

Results

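The 41 genes described here encode the machinery that copies DNA, followed in bone marrow mononuclear cells of Shp2 E76K mice given inhibitors of 2 signalling enzymes. The genes were chosen by symbol from a fixed list and grouped by role into the MCM2-7 helicase, origin recognition and licensing, the GINS, Cdc45 and Mcm10 factors, the sliding clamp and its loader, the polymerases with primase, the RPA complex, Okazaki fragment maturation, nucleotide supply and the CAF-1 chromatin assembly factor. All 41 were among the 24421 genes of the deposited count table, and all 41 were among the 12742 genes with enough counts to be tested. The mice were Shp2 E76K and received vehicle, the BTK inhibitor ACP196, the PI3K-p110δ inhibitor ACP319, or ACP196 and ACP319 together, for 3 weeks. Each of these 4 groups had 3 specimens, numbered 1 to 3 (vehicle), 4 to 6 (BTK inhibitor), 7 to 9 (PI3K inhibitor) and 10 to 12 (combination). Every group carried the E76K change, an activating mutation of the phosphatase SHP2 known from juvenile myelomonocytic leukaemia, so no comparison here is with unmutated marrow. The labels give neither age, sex and dose nor how the mutation was introduced. Whether a specimen number stands for 1 animal is not labelled either, so p-values measure only the spread between specimens, which may be technical.

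Replication starts at origins, where the origin recognition complex with Cdc6 and Cdt1 loads the ring-shaped MCM2-7 helicase onto DNA. Cdc45 and the GINS complex join the ring to form the active helicase, primase and the polymerases copy the strands, and Pcna, loaded by the RFC complex, holds the polymerases on the template. RPA coats the exposed single strands, Fen1 and Lig1 join the lagging-strand pieces, and CAF-1 places histones on the new DNA. Many of these genes are transcribed together as cells enter S phase, under E2F transcription factors, and in marrow they mark the dividing precursors rather than the mature cells. BTK and PI3K-p110δ are signalling kinases of blood cells.

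Because E2F factors are the textbook activators of these genes, the 250 bases before each start site were searched in the RefSeq promoter table (GRCm38.p6), which held 34 of the 41 genes. The genes without an entry were Mcm4, Gins1, Gins2, Gins4, Rfc2, Prim2 and Pole. An E2F-type site, taken as TTTCCCGC, TTTCGCGC, TTTGCCGC or TTTGGCGC on either strand, was found in 8 of 34 genes (23.5%), against 583 of 27025 genes of the whole table (2.16%) and 377 of the 9691 tested genes in it (3.89%). The 8 were Mcm5, Mcm6, Mcm7, Orc1, Cdc6, Gins3, Rfc3 and Pola1. A CCAAT box (CCAAT, either strand) was present in 22 of 34 (64.7%), against 37.5% of the table and 40.5% of the tested genes in it. The CHR element of mitotic promoters (TTTGAA, either strand) was in 5 of 34 (14.7%), against 18.3% and 12.9%. A match of letters is a description and not a measured binding site. The 4 stretches below, of 120 bases each, are those of the 8 with an E2F-type site that overlap no annotated exon. They run 5′ to 3′ on the gene's own strand, and capitals mark the E2F-type sites, which overlap each other where more than 8 letters run together. Mcm5 (plus strand, chr8:75109340-75109459) and Mcm6 (minus strand, chr1:128359706-128359825) encode helicase subunits, Cdc6 (plus strand, chr11:98907993-98908112) the loader, and Pola1 (minus strand, chrX:93632194-93632313) the catalytic subunit of the priming polymerase.
Mcm5: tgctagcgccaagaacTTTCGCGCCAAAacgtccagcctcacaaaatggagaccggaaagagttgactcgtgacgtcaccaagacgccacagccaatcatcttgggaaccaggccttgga
Mcm6: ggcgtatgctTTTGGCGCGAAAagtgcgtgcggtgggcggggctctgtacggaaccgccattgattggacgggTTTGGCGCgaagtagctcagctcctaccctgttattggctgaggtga
Cdc6: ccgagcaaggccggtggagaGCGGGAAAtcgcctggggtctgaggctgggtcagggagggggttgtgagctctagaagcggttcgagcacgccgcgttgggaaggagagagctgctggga
Pola1: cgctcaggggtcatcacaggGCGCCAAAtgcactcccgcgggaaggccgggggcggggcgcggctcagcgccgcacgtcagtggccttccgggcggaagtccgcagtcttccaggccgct
Mcm5 held 2 such sites and Mcm6 held 3, of which 2 in each gene overlap on opposite strands, while Cdc6 and Pola1 held 1 each.

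The counts came from SMART-Seq v4 libraries of total RNA, with 8993950 to 22154833 counts in genes per specimen. BTK inhibitor specimen 5 stood apart, with the lowest total, 15.43% of counts from the ribosomal transcript Rn45s (0.2033% to 0.7727% elsewhere) and 13560 genes with a count (14810 to 15505 elsewhere). The name of BTK inhibitor specimen 6 carries another day (30) than the other 11 (24). The lowest count of any of the 41 genes was 57, in specimen 5. Levels within a gene are given as CPM, counts scaled to a common library size with TMM factors, and differences as log2 differences ± SE from edgeR's quasi-likelihood test, with p-values adjusted by Benjamini-Hochberg over the 12742 genes and a threshold of 0.05. Marker genes of immature neutrophils had the highest summed level of 11 cell type lists in all 12 specimens, at 28500 to 96810 CPM, although the label names mononuclear cells. Mixed cells were measured, so fewer cells of a type and less RNA per cell cannot be told apart.

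In CPM, replication genes were higher with the PI3K inhibitor than with vehicle, and the combination also lay above vehicle, more evenly over the genes. Which of these 2 groups was the higher turned with the scale, since the mean summed level was 7286 CPM with the PI3K inhibitor and 6273 with both, but 3939 and 5329 in TPM. With the PI3K inhibitor, 10 of the 41 genes rose and 0 fell: Orc6, Gins1, Gins4, Pcna, Rfc3, Rfc4, Rpa3, Fen1, Tk1 and Tyms. Among all tested genes 4.84% rose and 5.82% fell in that comparison. In a fit with an offset for gene length 0 of the 41 passed, as did 0% of all genes, and 38 of the 41 differences were positive. The difference was positive for 37 of 41, with a median of 0.69 on the log2 scale, beside -0.01 over all tested genes. With the BTK inhibitor 0 of 41 passed the test, as did 0% of all genes, while 35 of 41 differences were positive with a median of 0.24. With both inhibitors 0 of 41 passed, again 0% of all genes, and all 41 differences were positive, from 0.11 (Rfc1) to 0.94 (Orc1), with a median of 0.44 beside 0.00 over all tested genes. The unadjusted p was under 0.05 for 10 of the 41 genes with the BTK inhibitor (3153 of all tested genes), 25 with the PI3K inhibitor (4543) and 3 with both (626). With limma voom and quality weights 10 of the 41 genes passed as higher and 1 as lower with the BTK inhibitor, and 13 as higher with both. Over all tested genes limma voom called 23.2% and 9.66% in either direction. With DESeq2 the counts were 4 higher with the BTK inhibitor and 0 with both, beside 8.7% and 0.173% of all genes in either direction. The 3 comparisons share the vehicle specimens.

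Summed over the 41 genes, the level was 3757, 5420 and 4653 CPM in the vehicle specimens, 5570, 6669 and 5768 with the BTK inhibitor, 6423, 6723 and 8712 with the PI3K inhibitor, and 6884, 6023 and 5912 with both. All 9 treated specimens were above the highest vehicle specimen. Vehicle specimen 1 was the lowest of the 12 for 24 of the 41 genes, and PI3K inhibitor specimen 9 was the highest for 26. In TPM, a scale that divides counts by gene length and brings each library to the same total, the sums were 2724, 4330 and 3413 in vehicle, 2653, 1988 and 4569 with the BTK inhibitor, 4336, 2984 and 4498 with the PI3K inhibitor and 5340, 5270 and 5378 with both. There the combination alone lay above vehicle without overlap. Scaling by library totals alone placed the combination at 7335 to 7855 against 4095 to 5993 in vehicle, and the PI3K inhibitor at 5523 to 7679, overlapping vehicle.

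**Figure D1:**
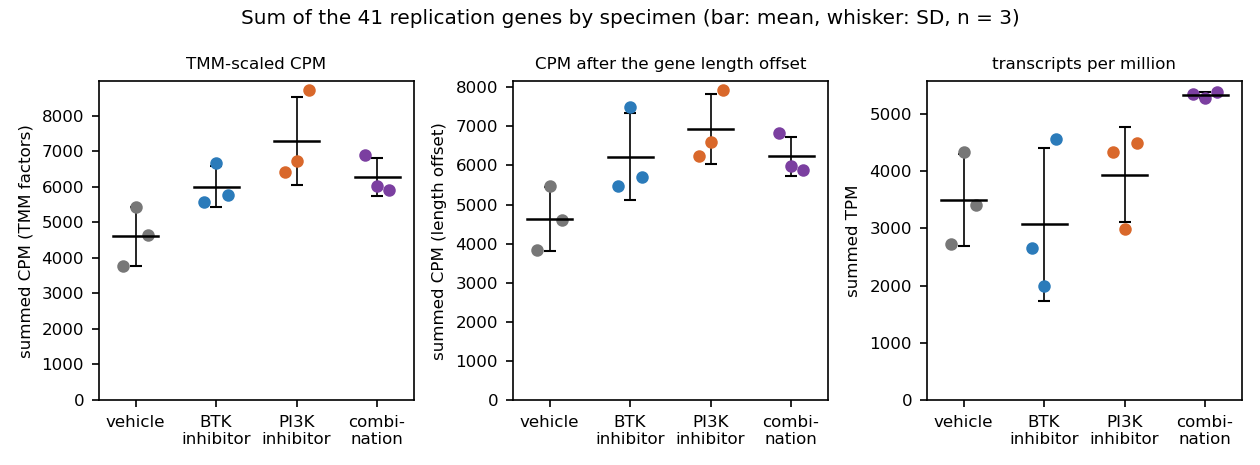
Summed level of the 41 replication genes in each specimen (points) by group, in TMM-scaled CPM, in CPM after an offset for gene length, and in TPM, with the mean and SD of 3 specimens. In CPM all treated specimens lie above the highest vehicle value of 5420, and in TPM only the combination, at 5270 to 5378, lies above all vehicle specimens.

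**Figure D2:**
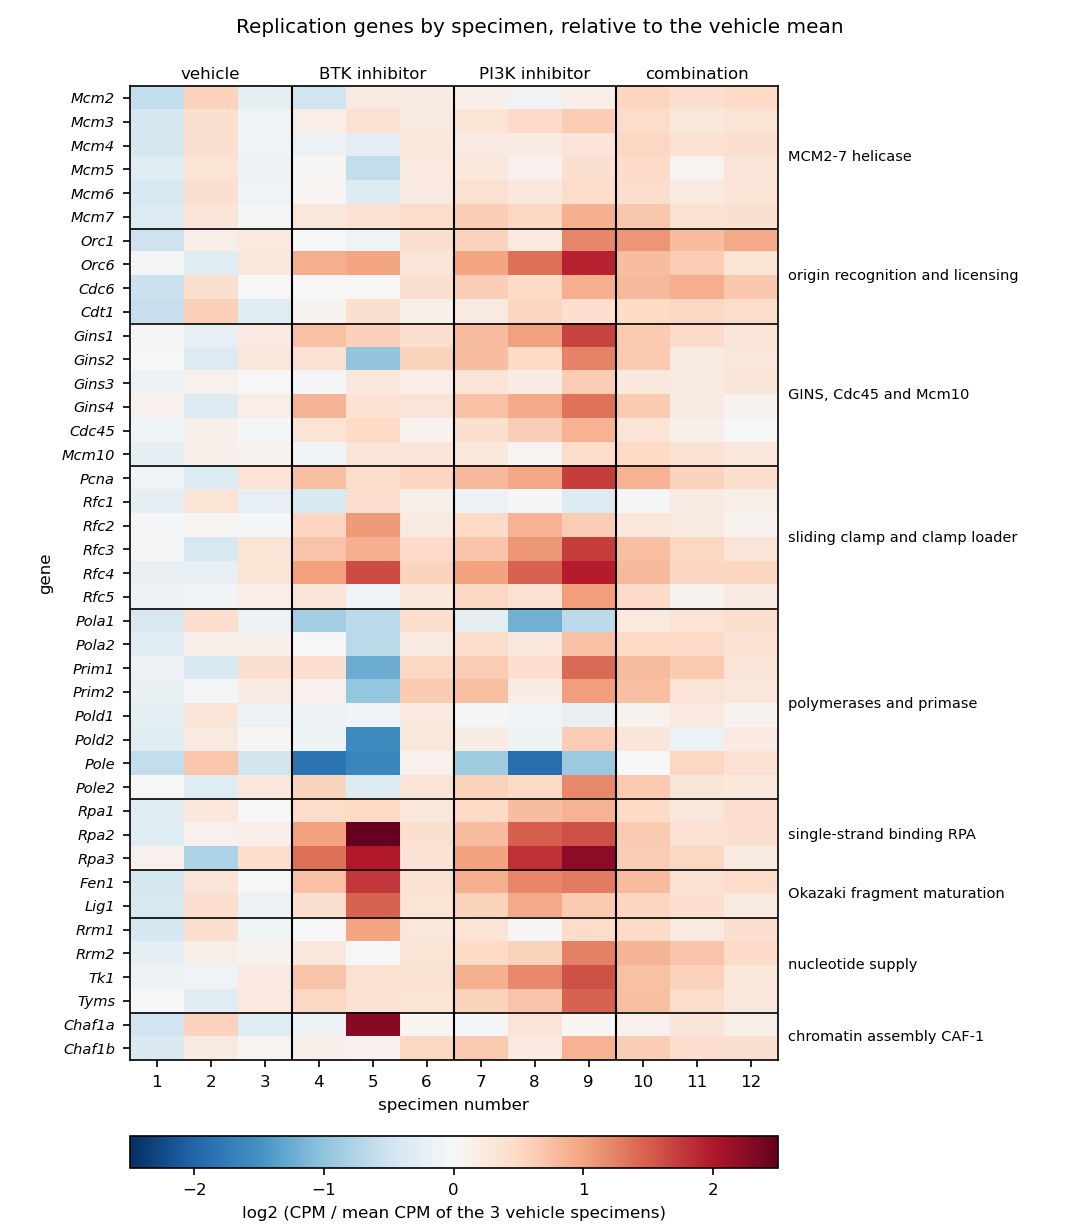
Each row is a replication gene and each column a specimen, coloured by the log2 ratio of its CPM to the mean of the 3 vehicle specimens, with genes ordered by role. The 3 combination columns are mostly pale red in every role, the PI3K inhibitor columns are darker red in the clamp loader, RPA and GINS rows and blue for Pole and Pola1, and BTK inhibitor specimen 5 has its own pattern, with dark red Rpa2 and Chaf1a beside blue Prim1 and Pold2.

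Counting specimens without a model, all 3 PI3K inhibitor specimens were above all 3 vehicle specimens for 25 of the 41 genes, where 24.9% of all tested genes did the same. The reverse held for 1 gene, Pole, where 26.3% of all genes lay below. For the combination 20 of 41 lay above without overlap, against 9.32% of all genes, and for the BTK inhibitor 12 of 41, against 8.92%. In all 3 treated groups the same 10 genes, Orc6, Gins1, Pcna, Rfc2, Rfc4, Rpa1, Rpa2, Fen1, Tk1 and Tyms, were above vehicle without overlap. The 3 groups were set against the same vehicle specimens, and the share of all genes above vehicle in all 3 was not counted. The counts by group depended on the scale. With library totals alone 4 genes lay above vehicle without overlap for the BTK inhibitor, 15 for the PI3K inhibitor and 27 for the combination, and in TPM the counts were 1, 5 and 25. The share of all genes was counted in TMM-scaled CPM only, so these counts have no background beside them. In CPM the 13 genes that were above vehicle without overlap in no treated group were Mcm2 to Mcm6, Cdt1, Rfc1, Pola1, Pold1, Pold2, Pole, Rrm1 and Chaf1a. The share of all genes with that pattern was not counted either. The spread between specimens was smallest in the combination, with a median coefficient of variation of 11.4% over the 41 genes, beside 22.1% in vehicle, 21.7% with the BTK inhibitor and 21.1% with the PI3K inhibitor.

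The 6 subunits of the MCM2-7 ring, the core of the replicative helicase, had small differences, and 0 of 6 passed the test in any comparison with vehicle. With the PI3K inhibitor their median log2 difference was 0.31, with the BTK inhibitor 0.01 and with both 0.40. Mcm7 measured 252, 393 and 314 CPM in vehicle, 389, 412 and 438 with the BTK inhibitor, 493, 458 and 593 with the PI3K inhibitor and 511, 418 and 422 with both. Its PI3K inhibitor and combination specimens were above every vehicle specimen, with log2 differences of 0.69 ± 0.24 (adjusted p = 0.0720) and 0.49 ± 0.24 (adjusted p = 0.9997). Mcm2 measured 125, 285 and 164 CPM in vehicle, 135, 223 and 221 with the BTK inhibitor, 208, 181 and 214 with the PI3K inhibitor and 278, 258 and 269 with both. Vehicle specimen 2 was the highest of the 12 for Mcm2, so all groups overlapped vehicle, and the PI3K inhibitor difference was 0.07 ± 0.31. Mcm3, Mcm4, Mcm5 and Mcm6 had PI3K inhibitor differences of 0.49, 0.24, 0.26 and 0.37, and combination differences of 0.35, 0.44, 0.29 and 0.34. The 5 subunits other than Mcm7 were thus alike in showing overlap with vehicle in every treated group.

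Origin licensing genes were all above vehicle on average in the 3 treated groups. Orc6, a subunit of the origin recognition complex, measured 46.9, 39.1 and 59.01 CPM in vehicle, 90.7, 95.3 and 59.6 with the BTK inhibitor, 95.3, 126 and 184 with the PI3K inhibitor and 82.4, 75.5 and 61.4 with both. All 9 treated specimens were above the highest vehicle specimen, and specimen 9 was the highest. The log2 difference was 1.48 ± 0.30 with the PI3K inhibitor (adjusted p = 0.0388), a 2.79-fold rise, 0.76 ± 0.29 with the BTK inhibitor (adjusted p = 0.158) and 0.60 ± 0.29 with both (adjusted p = 0.9997). Cdt1, which with Cdc6 loads the helicase, measured 47.1, 106 and 56.98 CPM in vehicle, 74.2, 92.5 and 76.5 with the BTK inhibitor, 81.5, 101 and 93.4 with the PI3K inhibitor and 98.7, 99.9 and 96.8 with both. Vehicle specimen 2 was again the highest, and the 3 combination specimens lay within 96.8 to 99.9 CPM. Orc1 and Cdc6 had the largest combination differences of the 41 genes, 0.94 ± 0.29 (adjusted p = 0.747) and 0.80 ± 0.27 (adjusted p = 0.783), and differed from vehicle by 0.74 and 0.69 with the PI3K inhibitor, without passing the test. Among the genes of this role Orc6 alone passed it.

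The GINS complex activates the loaded helicase with Cdc45, and Mcm10 assists it. Gins1 measured 23.5, 20.8 and 27.99 CPM in vehicle, 40.3, 36.4 and 31.9 with the BTK inhibitor, 41.1, 49.2 and 77.9 with the PI3K inhibitor and 37.9, 33.5 and 29.6 with both. Its 9 treated specimens were all above vehicle, and the PI3K inhibitor difference was 1.22 ± 0.27 (adjusted p = 0.0394). Gins4 measured 55, 40.96 and 56.9 CPM in vehicle, 91.7, 65.03 and 63.3 with the BTK inhibitor, 84.1, 98.7 and 131 with the PI3K inhibitor and 79.8, 58.4 and 54.03 with both. The BTK and PI3K inhibitor specimens did not overlap vehicle and the combination did, with a PI3K inhibitor difference of 1.04 ± 0.27 (adjusted p = 0.0407) and a combination difference of 0.33 ± 0.27. Gins2, Gins3 and Cdc45 lay above vehicle without overlap with the PI3K inhibitor, by 0.87, 0.40 and 0.64, and did not pass the test. Mcm10 measured 46.3, 60.1 and 58.6 CPM in vehicle, 52.8, 68.3 and 68.1 with the BTK inhibitor, 65.6, 57.5 and 76.1 with the PI3K inhibitor and 78, 70.5 and 66.7 with both. Only its combination specimens were all above vehicle, by 0.38 ± 0.22 (adjusted p = 0.9997). In this role 2 of 6 genes rose with the PI3K inhibitor.

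The sliding clamp Pcna and its loader held 3 of the 10 genes that rose with the PI3K inhibitor. Pcna measured 326, 278 and 447 CPM in vehicle, 590, 482 and 506 with the BTK inhibitor, 614, 682 and 1157 with the PI3K inhibitor and 640, 517 and 468 with both. It had the highest level per length of the 41 genes (a mean of 626.3 TPM over the 12 specimens), and its 9 treated specimens were above all vehicle specimens. The differences were 1.22 ± 0.30 with the PI3K inhibitor (adjusted p = 0.0407), 0.58 ± 0.30 with the BTK inhibitor and 0.63 ± 0.30 with both. Rfc4, a small subunit of the loader, measured 38.5, 38.6 and 56.5 CPM in vehicle, 90.7, 139 and 65.8 with the BTK inhibitor, 89.1, 124 and 174 with the PI3K inhibitor and 77.9, 64.7 and 64.7 with both. No treated specimen overlapped vehicle, and the PI3K inhibitor difference of 1.53 ± 0.33 (adjusted p = 0.0388) was a 2.90-fold rise. Rfc3, another small subunit, measured 31.2, 24.3 and 41.04 CPM in vehicle, 53.1, 60.6 and 44.9 with the BTK inhibitor, 52.95, 69.4 and 107 with the PI3K inhibitor and 54.4, 45.9 and 40.4 with both. Its PI3K inhibitor difference was 1.25 ± 0.29 (adjusted p = 0.0403), and 1 combination specimen (40.4 CPM) lay within the vehicle range. Rfc2 and Rfc5 differed by 0.67 (adjusted p = 0.0784) and 0.67 (adjusted p = 0.0760) with the PI3K inhibitor, both without overlap. Rfc1, the large subunit, with the longest gene model of the loader (4720 bases), measured 80.7, 119 and 81.5 CPM in vehicle, 72.3, 125 and 103 with the BTK inhibitor, 85.3, 90.1 and 73.7 with the PI3K inhibitor and 91.2, 109 and 104 with both. All groups overlapped vehicle for Rfc1, and its differences were -0.18 ± 0.26 with the PI3K inhibitor and 0.11 ± 0.26 with both.

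The polymerase and primase genes had differences of both signs, from -1.16 to 0.89 with the PI3K inhibitor, and 0 of 8 passed the test. Pole, the catalytic subunit of the leading-strand polymerase, measured 37.1, 91.4 and 41.4 CPM in vehicle, 16.04, 18.4 and 60.8 with the BTK inhibitor, 30.6, 15.4 and 29.96 with the PI3K inhibitor and 55.97, 80.99 and 72.7 with both. The PI3K inhibitor specimens were all below vehicle, with a log2 difference of -1.16 ± 0.50 (adjusted p = 0.117), and BTK inhibitor specimens 4 and 5 were also below all vehicle specimens while specimen 6 lay inside the vehicle range. Pole2, an accessory subunit of the same enzyme, measured 28.3, 23.2 and 34.2 CPM in vehicle, 42.1, 22.8 and 35.9 with the BTK inhibitor, 42.8, 39.95 and 65.5 with the PI3K inhibitor and 44.9, 35.1 and 34.3 with both. Its PI3K inhibitor specimens were all above vehicle, with a difference of 0.79 ± 0.29 (adjusted p = 0.0765). Pola1, of the priming polymerase, measured 49.3, 86.9 and 58.2 CPM in vehicle, 36.1, 40.99 and 88.3 with the BTK inhibitor, 54.8, 28.2 and 41.3 with the PI3K inhibitor and 76.95, 81.6 and 88.1 with both. PI3K inhibitor specimens 8 and 9 were below all vehicle specimens and specimen 7 was not, giving -0.64 ± 0.36 (adjusted p = 0.212). The partners of Pola1 were on the other side of 0, at 0.49 (Pola2), 0.89 (Prim1, the primase subunit that makes the RNA primer) and 0.70 (Prim2). Pold1, the catalytic subunit of the lagging-strand polymerase, measured 70.6, 104 and 76.8 CPM in vehicle, 75.6, 79.8 and 98.9 with the BTK inhibitor, 81.6, 79.96 and 73.9 with the PI3K inhibitor and 88.9, 99.2 and 88.5 with both. Its groups overlapped throughout, with -0.09 ± 0.22 for the PI3K inhibitor, and Pold2, its partner, differed by 0.27 ± 0.37. With both inhibitors all 8 polymerase and primase genes had positive differences, from 0.14 to 0.60. Pole and Pola1 are named here after their values were seen.

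RPA, the single-strand binding complex, had the largest median difference of the 9 roles with the PI3K inhibitor, 1.33 over 3 genes, which was 0.86 with the offset for gene length and then below the 1.00 of Okazaki fragment maturation and the 0.95 of origin licensing. Rpa3, the smallest subunit, measured 44.1, 23.6 and 55.4 CPM in vehicle, 106, 163 and 52.7 with the BTK inhibitor, 82.1, 145 and 193 with the PI3K inhibitor and 63.1, 58.6 and 47.8 with both. The PI3K inhibitor specimens were above all vehicle specimens, by 1.77 ± 0.43 (adjusted p = 0.0407), a 3.41-fold rise, while the BTK inhibitor and combination ranges overlapped vehicle. This difference was the largest of the 41 genes without the offset for gene length and 0.73 ± 0.21 with it, below Tyms (1.27) and Cdc6 (1.19). Rpa2, the middle subunit, measured 47.7, 63.4 and 64.9 CPM in vehicle, 118, 340 and 77.7 with the BTK inhibitor, 100, 165 and 178 with the PI3K inhibitor and 92.1, 76.7 and 78.7 with both. Specimen 5 exceeded every other specimen, and the differences were 1.60 ± 0.45 with the BTK inhibitor (adjusted p = 0.136, and 0.74 without specimen 5) and 1.33 ± 0.44 with the PI3K inhibitor (adjusted p = 0.0618). Rpa1, which binds the single strand, was above vehicle without overlap in all 3 treated groups, by 0.42, 0.72 and 0.41 with the BTK inhibitor, the PI3K inhibitor and both.

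For the joining of lagging-strand pieces, Fen1, the flap nuclease, measured 82.4, 139 and 113 CPM in vehicle, 184, 379 and 145 with the BTK inhibitor, 208, 261 and 273 with the PI3K inhibitor and 192, 146 and 154 with both. No treated specimen overlapped vehicle, and specimen 5 was the highest. The PI3K inhibitor difference of 1.15 ± 0.34 had an adjusted p of 0.0494, close to the threshold. Lig1, the ligase, measured 125, 223 and 151 CPM in vehicle, 221, 465 and 210 with the BTK inhibitor, 249, 320 and 262 with the PI3K inhibitor and 241, 223 and 195 with both. The PI3K inhibitor specimens were above vehicle without overlap, by 0.73 ± 0.33 (adjusted p = 0.129), and specimen 5 again stood highest.

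Nucleotide supply held the remaining genes that rose. Tk1, thymidine kinase, measured 94.4, 96.5 and 118 CPM in vehicle, 169, 135 and 134 with the BTK inhibitor, 191, 237 and 311 with the PI3K inhibitor and 170, 154 and 125 with both. All treated specimens were above vehicle, and all PI3K inhibitor specimens were also above all BTK inhibitor and combination specimens. The PI3K inhibitor difference was 1.26 ± 0.25 (adjusted p = 0.0388), beside 0.50 ± 0.25 with the BTK inhibitor and 0.54 ± 0.25 with both. Tyms, thymidylate synthase, measured 86.2, 71.4 and 103 CPM in vehicle, 125, 114 and 109 with the BTK inhibitor, 130, 143 and 243 with the PI3K inhibitor and 147, 120 and 106 with both. Here too no treated specimen overlapped vehicle, and the PI3K inhibitor difference was 0.98 ± 0.28 (adjusted p = 0.0442). Of the ribonucleotide reductase subunits, Rrm2, whose level follows S phase, differed by 0.83 (adjusted p = 0.0582) with the PI3K inhibitor and 0.69 (adjusted p = 0.875) with both, without overlap in either. Rrm1, the large subunit, measured 282, 506 and 351 CPM in vehicle, 379, 748 and 461 with the BTK inhibitor, 484, 389 and 524 with the PI3K inhibitor and 537, 451 and 497 with both. Vehicle specimen 2 lay inside the range of every treated group, and the PI3K inhibitor difference was 0.30 ± 0.31.

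The CAF-1 subunits did not pass the test. Chaf1a, the large subunit, measured 44.9, 93.9 and 50.98 CPM in vehicle, 58.1, 305 and 65.7 with the BTK inhibitor, 60.97, 79.8 and 65.1 with the PI3K inhibitor and 68.1, 78.5 and 70.3 with both. The BTK inhibitor difference of 1.17 ± 0.52 rested on specimen 5, since the other 2 specimens of that group lay inside the vehicle range and the difference was -0.03 without it. Chaf1b measured 32.6, 48.6 and 43.8 CPM in vehicle, 45.2, 44.8 and 59.8 with the BTK inhibitor, 65.9, 49.7 and 76.5 with the PI3K inhibitor and 64.2, 55.4 and 55.2 with both. It was above vehicle without overlap with the PI3K inhibitor, by 0.62 ± 0.24 (adjusted p = 0.0931), and with both, by 0.48 ± 0.24.

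**Figure D3:**
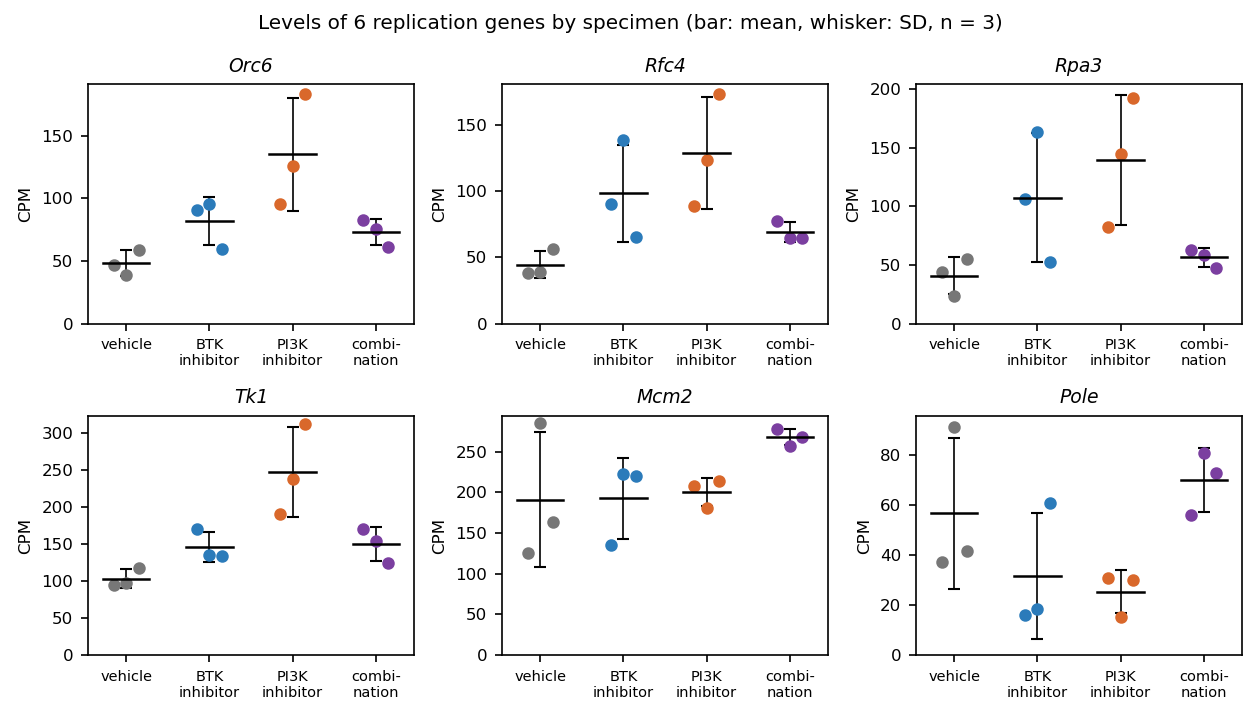
CPM of 6 replication genes in each specimen (points), with the mean and SD of 3 specimens per group. Orc6, Rfc4, Rpa3 and Tk1 have their highest group mean with the PI3K inhibitor, Mcm2 overlaps vehicle in every treated group, and Pole is lower in all 3 PI3K inhibitor specimens (15.4 to 30.6 CPM) than in vehicle (37.1 to 91.4 CPM).

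**Figure D4:**
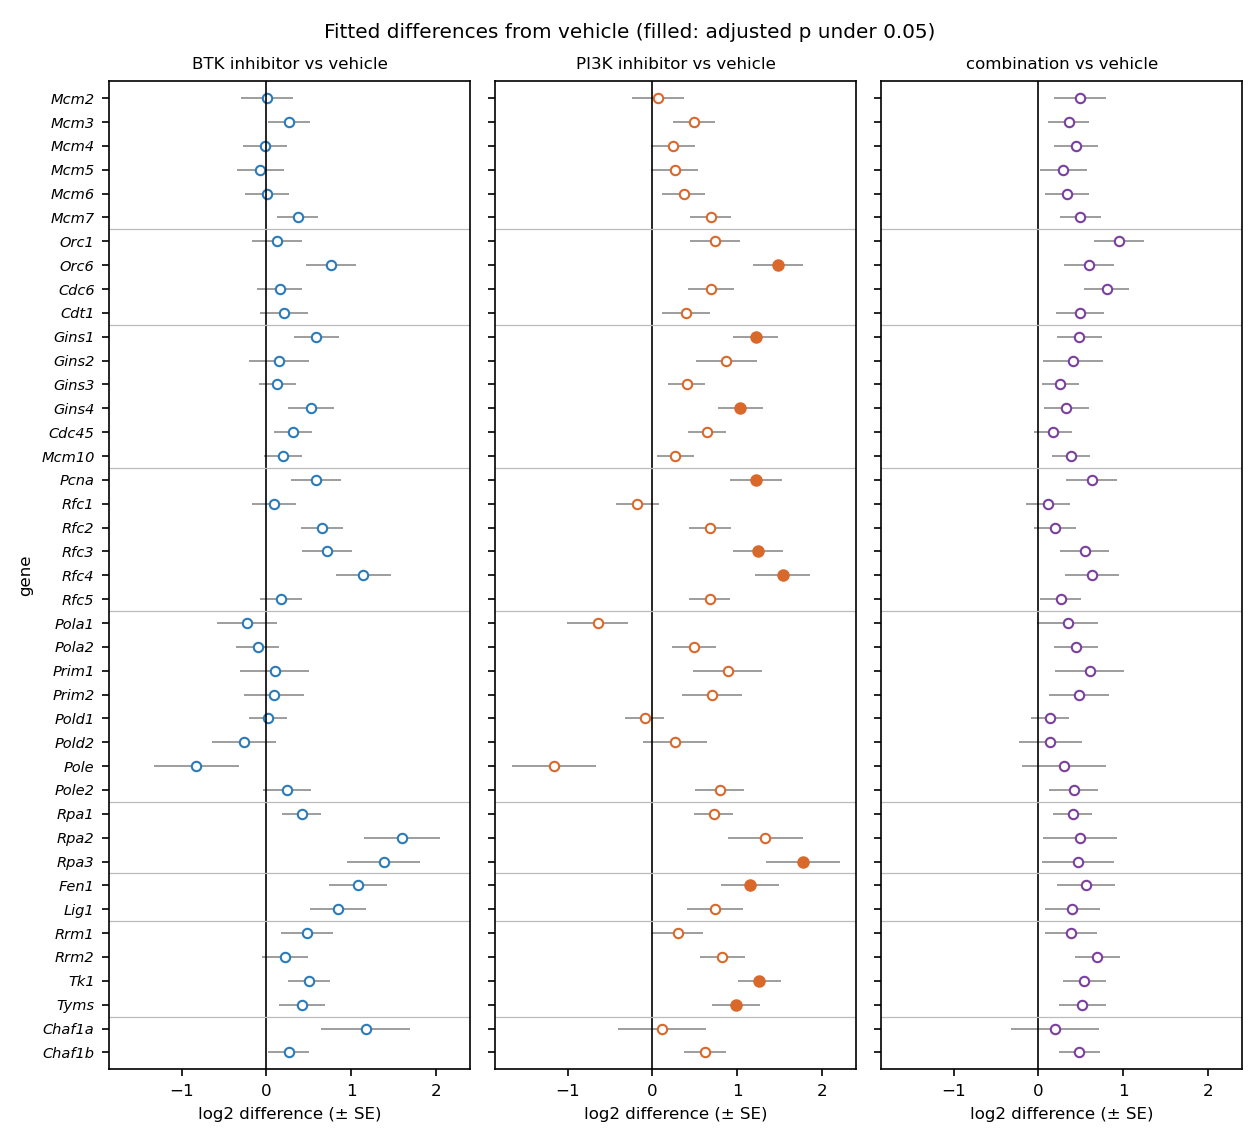
Log2 differences from vehicle (points, with SE bars) of the 41 genes in 3 comparisons, ordered by role, with filled points for an adjusted p under 0.05. The 10 filled points are all in the PI3K inhibitor panel, and all 41 points of the combination panel lie above 0.

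Gene length moved with these differences. The libraries differed in how strongly counts depended on gene length: with the PI3K inhibitor the 200 tested genes nearest in length to Rpa3 (638 bases) had a median log2 difference of 1.15, and those nearest to Pole (7129 bases) -0.83. Of the 10 genes that rose, 9 were among the 21 of the 41 genes no longer than their median length of 2222 bases, and the exception was Tyms (3808 bases). The 4 genes with negative PI3K inhibitor differences, Rfc1, Pola1, Pold1 and Pole, were 3424 to 7129 bases long. Set against genes of like length, 38 of the 41 were above the median of their 200 neighbours with the PI3K inhibitor, by a median of 0.45. Pole was at -1.16 beside -0.83 for its neighbours, Pola1 at -0.64 beside -0.71, Tyms at 0.98 beside -0.30 and Cdc6 at 0.69 beside -0.52. In the combination the neighbours' medians lay between -0.07 and 0.10 for every gene, and all 41 genes were above the median of their neighbours, by a median of 0.43. With the BTK inhibitor 35 of 41 were above it, by a median of 0.17.

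**Figure D5:**
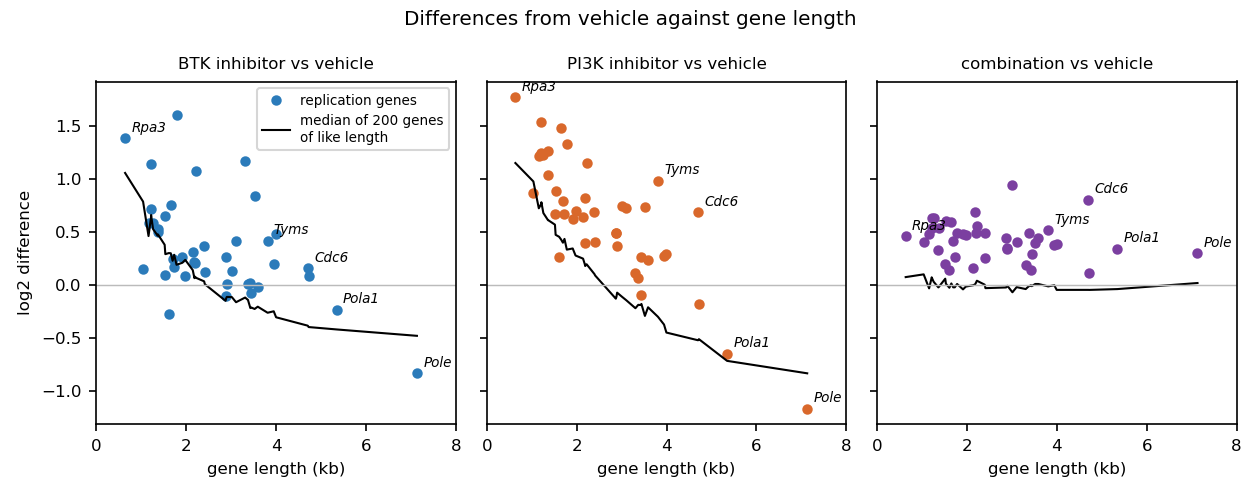
Log2 difference from vehicle of each replication gene (points) against gene length in kilobases, with a line for the median of the 200 tested genes nearest in length. The line slopes down with length in the BTK and PI3K inhibitor panels and is flat in the combination panel, where all points lie above it.

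An edgeR fit with an offset for gene length in each library called 0 of the 41 genes with the PI3K inhibitor, and 0 of all tested genes, so the 10 calls ended there. The 41 differences had a median of 0.47 in that fit, and Cdc6 (1.19 ± 0.23, adjusted p = 0.0614), Orc6 (1.05 ± 0.22, adjusted p = 0.063) and Tyms (1.27 ± 0.30, adjusted p = 0.0654) had the smallest adjusted p-values. Pole and Pola1 were at -0.34 ± 0.35 and -0.07 ± 0.24 in that fit. With the same offset and specimen 5 left out, 16 genes rose: Mcm7, Orc1, Orc6, Cdc6, Mcm10, Rfc4, Pola2, Rpa1, Rpa2, Rpa3, Fen1, Lig1, Rrm1, Rrm2, Tk1 and Tyms, of which 6 were among the 10. Of all tested genes 18.6% were called in either direction in that fit. The summed level in CPM after the offset was 3841 to 5464 in vehicle, 6246 to 7940 with the PI3K inhibitor and 5892 to 6816 with both, without overlap. The 10 calls also ended when any 1 of vehicle specimens 1, 2 and 3, PI3K inhibitor specimens 8 and 9 or combination specimens 10, 11 and 12 was left out (0 of 41 in each fit, with 0 calls over all genes). Without BTK inhibitor specimen 5 the count was 25, and without specimen 6 it was 15 higher and 1 lower. Calls over all genes rose as well in these fits, to 33.8% and 26.2% in either direction, from 10.7%. The 10 calls also ended with the presence of Y-linked transcripts as a covariate (0 of 41, and 0 over all genes). These transcripts summed to more than 10 CPM in vehicle specimens 1 and 2, BTK inhibitor specimen 4, PI3K inhibitor specimen 8 and combination specimen 11 only. Their presence was thus not balanced between vehicle and the treated groups.

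Between the treated groups 0 of 41 genes passed the test, as did 0% of all genes in each comparison. Against the PI3K inhibitor, the combination was lower without overlap for 12 of 41 genes (24.6% of all genes) and higher for 6 (26.5%), with a median of -0.19. The genes lower in the combination included Rpa3 (-1.31 ± 0.43), Rfc4 (-0.90 ± 0.32), Orc6 (-0.88 ± 0.29), Gins1 (-0.74 ± 0.26) and Tk1 (-0.72 ± 0.25), and those higher included Pole (1.46 ± 0.50) and Pola1 (0.99 ± 0.36), the smallest adjusted p being 0.125. The unadjusted p was under 0.05 for 9 of the 41 genes in this comparison (3660 of all genes), 5 in the PI3K inhibitor against the BTK inhibitor (791) and 5 in the combination against the BTK inhibitor (2569). DESeq2 called 4 and limma voom 14 of the 41 between the combination and the PI3K inhibitor, beside 11.4% and 41.8% of all genes. The PI3K inhibitor exceeded the BTK inhibitor without overlap for 10 of 41 genes, against 3.77% of all genes, with a median of 0.36, and Tk1, Gins1, Pola2, Rrm2, Pcna, Rfc5, Tyms, Cdc6, Mcm6 and Mcm7 were these 10. The combination exceeded the BTK inhibitor without overlap for 7 of 41, against 8.07%: Orc1, Cdc6, Pola2, Mcm4, Rrm2, Mcm2 and Cdt1.

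The test of whether the effect of both inhibitors together equalled the sum of their single effects on the log2 scale called 11 of the 41 genes. For 10 the combination was below that sum (15.6% of all genes were lower in this test), and for 1, Pole, it was above (12% of all genes were higher). The 10 were Orc6, Gins1, Gins4, Rfc2, Rfc3, Rfc4, Rpa2, Rpa3, Fen1 and Tk1. With the offset for gene length 0 of the 41 were called in this test, as without vehicle specimen 2, PI3K inhibitor specimen 8 or 9, or combination specimen 11 or 12, each left out in turn. At most 0.00785% of all tested genes were called in any of those fits, so the calls ended for nearly all genes. Without vehicle specimen 1 the counts were 1 higher and 4 lower, and without BTK inhibitor specimen 4 they were 0 and 7. Over all genes 17.4% and 16.7% were called in these fits in either direction.

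The other genes of the pathway were counted from lists, to be read beside the 4.84% of all tested genes that rose and the 5.82% that fell with the PI3K inhibitor. Of 37 other replication factors, 7 rose and 0 fell with the PI3K inhibitor, with a median of 0.27. Dscc1, a subunit of an alternative clamp loader (log2 difference 1.58 ± 0.32, adjusted p = 0.0388), Tipin, of the fork protection complex (1.45 ± 0.32, adjusted p = 0.0394), and Rnaseh2a, which removes RNA from DNA (1.60 ± 0.36, adjusted p = 0.0396), had the smallest p-values. Of 26 other nucleotide supply genes 2 rose and 1 fell, among them Dut, which degrades dUTP (1.63 ± 0.38), and Samhd1, which degrades deoxynucleotides (-0.85 ± 0.23). The calls in that list and among the E2F and G1/S regulators were near the share of all genes. Of 27 such regulators 1 rose, Ccne1, the cyclin that starts S phase (1.23 ± 0.30), and 1 fell, Cdk6 (-1.73 ± 0.50). Of the 28 mitosis genes 2 rose, Cdk1 (1.11 ± 0.28) and Cenpa (1.36 ± 0.39), and 0 fell, also near the share of all genes. Their differences went both ways, 15 positive and 13 negative, with a median of 0.01. With both inhibitors 0 genes of these 4 lists passed the test, and positive differences were seen for 34 of 37 other replication factors (median 0.33), 27 of 28 mitosis genes (median 0.21), 18 of 26 nucleotide supply genes (median 0.11) and 18 of 27 E2F and G1/S regulators (median 0.14). With the BTK inhibitor the 4 lists had medians of 0.15, 0.03, -0.03 and -0.15 in the same order, and 0 genes passed.

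Markers of red cell precursors, which divide rapidly in the marrow, had positive medians with the PI3K inhibitor and the combination, as did replication genes. The medians were positive with the BTK inhibitor too, at 0.35 for the erythroid markers (10 of 18 positive) and 0.24 for the replication genes. In summed CPM the erythroid markers lay inside the vehicle range there, while the replication genes lay above it. In TPM both sums overlapped vehicle. Of 18 tested erythroid markers 5 rose and 0 fell with the PI3K inhibitor (median 1.10), where 4.84% of all genes rose. With both inhibitors all 18 differences were positive (median 1.16) and 0 passed the test, while 13 lay above vehicle without overlap, as did 9.32% of all genes. Their summed level ranged from 1128 to 4344 CPM in vehicle, 2772 to 4056 with the BTK inhibitor, 4309 to 8225 with the PI3K inhibitor and 5951 to 6403 with both, and no tested marker of the list was at 0 in any specimen. In TPM the sum was 781 to 3413 in vehicle, 1164 to 2632 with the BTK inhibitor and 2069 to 4235 with the PI3K inhibitor, all overlapping, and 4522 to 5297 with both. In CPM vehicle specimen 1 was the lowest of the 12 for the erythroid sum and for the sum of the replication genes. In TPM the lowest erythroid sum (781) was again in vehicle, while BTK inhibitor specimen 5 had the lowest sum of the replication genes (1988). PI3K inhibitor specimen 9 was the highest for both in CPM. Monocyte markers fell for 4 of 10 genes with the PI3K inhibitor (median -0.94), from a summed 2783 to 3235 CPM in vehicle to 1761 to 2322. Mature neutrophil markers fell for 2 of 9 (median -0.79), and with both inhibitors all 9 differences were negative (median -0.57). Immature neutrophil markers had 0 of 10 calls and medians of -0.13 with the PI3K inhibitor and -0.59 with both. The part of these cell types in the levels of the replication genes was not tested.

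With the BTK inhibitor 0 markers of any list passed the test. The B-lineage precursor markers were positive there for 16 of 18 genes (median 0.83). The unadjusted p was under 0.05 for 8 of the 18, beside 3153 of all 12742 tested genes. Above vehicle without overlap lay 1 of the 18, beside 8.92% of all genes. The summed level of these markers was 421 to 989 CPM against 388 to 573 in vehicle. The part of these cells in the levels of the replication genes was not tested. With the PI3K inhibitor 0 of 10 granulocyte-monocyte precursor markers passed the test (median -0.05), 1 of 18 B-lineage precursor markers fell (median -0.20), 0 of 10 mature B cell (median -0.11) and 0 of 10 T and NK cell markers passed (median 0.18), 1 of 10 megakaryocyte markers rose (median 0.06), 0 of 9 stem and progenitor markers passed (median -0.27) and 1 of 8 stroma markers rose (median 0.46). With both inhibitors their medians were -0.40, 0.19, 0.24, -0.14, -0.06, -0.10 and 0.56 in the same order, with 0 calls. In BTK inhibitor specimen 5, 1 megakaryocyte marker (Tubb1) and 4 stroma markers were at a count of 0, the latter being Kitl, Pdgfrb and the untested Col3a1 and Bglap.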

How the data were processed

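RNA from bone marrow mononuclear cells was made into libraries with the SMART-Seq v4 and Nextera XT kits, per the labels' protocols, which do not mark strand. The deposited values are counts per gene, which the authors made with STAR and featureCounts on mm10, per the submitters' processing notes. The 24 deposited samples are 2 per specimen, and the count table has 1 column for each of the 12 specimens, matched by the number in its name. The 41 genes and all lists were chosen with earlier results of these data known.

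Counts were filtered with filterByExpr by group (smallest count 10, total 15) and tested with edgeR 4.0.16 (R 4.3.3), with TMM factors and a robust quasi-likelihood test, in one model of 4 group means over all 12 specimens, with 7 comparisons. CPM used TMM factors, and TPM used the deposited gene lengths. Alternatives were DESeq2 1.42.0, limma 3.58.1 (voom), other scalings, filters, an offset for gene length (a spline with 5 degrees of freedom per library) and leaving out each specimen. The code was tested on simulated data. Values in every specimen were given for genes past the threshold against vehicle and for the genes with the smallest and the largest p of each role with the PI3K inhibitor. Exons of 5 of the genes (Gins2, Rfc4, Pold2, Lig1, Tk1) overlap a neighbour on the other strand by 69 to 160 bases, where reads cannot be told apart. Counts of every pair of specimens within a group differed beyond counting noise (chi-square per degree of freedom 20.5 to 633.1). The values of 1 gene of the pathway lists are not reported here.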

Additional observations from a re-analysis of the deposited data

Results flagged for a closer look

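For 11 of the 41 replication genes the effect of both inhibitors together differed from the sum of the single effects, by edgeR's quasi-likelihood test of that interaction with p-values adjusted over 12742 genes. Of all tested genes 3522 (27.6%) were called in this test, so the share of the replication genes was near that of all genes. On the log2 scale the combination was below the sum by -1.64 for Orc6, -1.32 for Gins1, -1.23 for Gins4, -1.13 for Rfc2, -1.42 for Rfc3, -2.04 for Rfc4, -2.44 for Rpa2, -2.69 for Rpa3, -1.67 for Fen1 and -1.22 for Tk1. For Pole it was above the sum by 2.29. The value of Rpa2 was -1.57 (adjusted p = 0.0218) without BTK inhibitor specimen 5. The adjusted p-values ran from 0.0202 (Rfc4, Rpa3) to 0.0319 (Rfc2). All 10 genes below the sum had positive differences from vehicle with each single inhibitor, and for 9 of them, all but Tk1, the combined difference was smaller than either single one. Of these 11 genes, 10 were no longer than the median length of the 41. With the offset for gene length 0 of them passed this test, where 0.00785% of all genes were called.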

How the results depend on the processing

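No paired analysis was possible because each specimen number occurs in 1 group only. Percentages in this paragraph are shares of all tested genes called in either direction in the same fit. The 10 calls with the PI3K inhibitor (10.7%) became 19 with DESeq2 (26.9%), 27 with limma voom (37.4%) and 19 with only the groups compared (32.9%). They became 0 with the gene length offset (0%), 16 with that offset and specimen 5 left out (18.6%), and 0 with the Y-linked covariate (0%). Leaving out 1 specimen at a time gave 0 (without vehicle 1, 2 or 3, PI3K inhibitor 8 or 9, or any combination specimen) to 25 (without BTK inhibitor 5, 33.8%). The median difference with the PI3K inhibitor moved to 0.4745 with the offset and 0.4744 with the offset and specimen 5 left out. Against vehicle the BTK inhibitor count of 0 became 4 with DESeq2 (8.7%) and 11 with limma voom (23.2%). It ranged from 0 to 9 (without specimen 6, 29.4%) with 1 specimen left out. The combination count became 13 with limma voom (9.66%). The combination against the BTK inhibitor gave 8 with limma voom (39%) and 0 to 5 (without specimen 6, 26.8%) with 1 specimen left out. The combination against the PI3K inhibitor gave 4 with DESeq2 (11.4%), 14 with limma voom (41.8%) and 10 with only the groups compared (32.6%). With 1 specimen left out it gave 0 to 6 (without specimen 5, 19.3%). The 11 interaction calls (27.6%) became 20 with limma voom (52.8%), 0 with the offset (0.00785%) and 0 with the offset without specimen 5 (4.16%). With 1 specimen left out they ranged from 0 (without vehicle 2, 0.00772%) to 15 (without BTK inhibitor 6, 44%). Genes above vehicle without overlap numbered 4 by library totals and 1 by TPM for the BTK inhibitor, and 15 and 5 for the PI3K inhibitor. The shares of all genes on these scales were not counted. The cause of these changes was not tested.

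Signs turned mostly for genes with differences near 0. An exception was Chaf1a with the BTK inhibitor, which went from 1.17 to -0.026 without specimen 5. With the BTK inhibitor Mcm2 was at -0.0329 (limma voom), -0.0251 (no filter), -0.0142 (offset without specimen 5) and -0.0705 (Y-linked covariate), Rfc1 at -0.1122 (limma voom), Pola1 at 0.1357 (offset) and 0.189 (offset without specimen 5), and Pold1 at -0.0144 (no filter). With the PI3K inhibitor Mcm2 was at -0.0014 (Y-linked covariate), Rfc1 at 0.3152 and 0.3132 (offset, with and without specimen 5), and Pold1 at 0.0515 (limma voom), 0.1132 and 0.1112 (offset, with and without specimen 5). With 1 specimen left out, BTK inhibitor differences ranged from -0.2208 to 0.4156 for Mcm2, -0.0112 to 0.6352 for Cdt1, -0.098 to 0.2972 for Rfc1, -0.7552 to 0.0399 for Pola1, -0.1122 to 0.2001 for Pold1 and -0.026 to 1.5664 for Chaf1a. PI3K inhibitor differences ranged from -0.1628 to 0.4735 for Mcm2, -0.2765 to 0.0321 for Rfc1, -0.2043 to 0.0891 for Pold1 and -0.0811 to 0.5159 for Chaf1a, and the combination difference of Chaf1a from -0.007 to 0.5904. All 41 combination differences were positive in every fit run except without vehicle specimen 1, where 40 were. Specimen 5 had the fewest counts (8993950), and the part of depth in these changes was not tested.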
